A study of Mus musculus with 6 samples.

Results

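The 8 genes described here, Srebf2, Scap, Insig1, Insig2, Mylip, Stard4, Npc1 and Npc2, encode proteins that sense sterols, set the turnover of the LDL receptor and move cholesterol inside the cell. They were picked by symbol, with earlier results of these data known, as 8 of the 55401 gene IDs in the files. Each symbol matched exactly 1 ID. Bulk RNA was sequenced from cells isolated from the colonic lamina propria, the connective tissue layer beneath the gut epithelium. Mice of 3 libraries received atorvastatin at 20 mg/kg, and mice of the other 3 libraries received the vehicle, 2% Tween 80, each by gavage on alternate days. All were male, aged 5 to 6 weeks and Apc Min/+, so that both groups carry a truncated copy of Apc, a brake on Wnt signalling, and are prone to intestinal adenomas. The design has no animals without this allele, and nothing in the labels ties each library to an animal of its own. The p-values therefore reflect variation among these 6 libraries, and that variation may be technical. The series title asks about tryptophan catabolites of the microbiota, statins and colorectal cancer.

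Atorvastatin inhibits the rate-limiting enzyme of cholesterol synthesis. SREBP2, the product of Srebf2, is a transcription factor made as a precursor in the endoplasmic reticulum membrane, where it is bound to the escort protein SCAP. When membrane sterol is low, SCAP carries SREBP2 to the Golgi, proteases release its active part, and genes for sterol synthesis and LDL uptake are transcribed. When sterol is high, the INSIG proteins hold SCAP in the endoplasmic reticulum. Cholesterol that enters with LDL is freed in the lysosome, where NPC2 passes it to the membrane protein NPC1 for export, and the carrier STARD4 moves sterol between membranes. MYLIP, also called IDOL, is a ubiquitin ligase that sends the LDL receptor for degradation and whose gene is induced by the oxysterol receptor LXR.

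Srebf2 and Insig1 are known to be transcribed under SREBP control themselves, which makes the bases before their start sites the natural place to look for a sterol regulatory element; Insig2 is the counterpart of Insig1 without that known dependence. Of the 8 genes, 6 had an entry among RefSeq's promoter sequences (build GRCm38.p6), each reaching from 250 bases before to 50 bases after a start site. The stretches shown end before the first exon in GENCODE. Capitals mark 3 motifs, searched on both strands: the core of the sterol regulatory element as TCACNCCA, the CCAAT box as CCAAT, where the SREBP partner NF-Y binds, and the E-box CACGTG. None of these marked matches overlap in the sequences shown.
Srebf2, chr15:82147019-82147180, plus strand: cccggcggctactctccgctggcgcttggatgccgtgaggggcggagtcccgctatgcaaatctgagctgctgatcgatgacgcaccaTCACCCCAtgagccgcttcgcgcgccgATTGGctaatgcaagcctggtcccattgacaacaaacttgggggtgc
Insig1, chr5:28071162-28071362, plus strand: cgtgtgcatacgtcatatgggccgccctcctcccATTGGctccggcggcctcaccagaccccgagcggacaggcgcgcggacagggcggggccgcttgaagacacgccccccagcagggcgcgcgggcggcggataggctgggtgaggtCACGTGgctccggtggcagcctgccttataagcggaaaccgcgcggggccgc
Insig2, chr1:121332590-121332839, minus strand: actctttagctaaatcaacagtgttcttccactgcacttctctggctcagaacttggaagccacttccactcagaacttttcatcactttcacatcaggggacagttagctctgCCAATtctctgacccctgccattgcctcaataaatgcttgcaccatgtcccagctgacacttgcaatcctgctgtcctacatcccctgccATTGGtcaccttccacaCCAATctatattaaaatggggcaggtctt

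The sterol regulatory core was found before Srebf2, as TCACCCCA starting 162 bases before the start site, and in none of the promoter entries of the other 5 genes. Over all 32851 promoter entries of this length it was found in 4.36%. A CCAAT box in reverse, ATTGG, starts 135 bases before the Srebf2 start site and 216 bases before that of Insig1, and CCAAT boxes were found in 37.4% of all entries. They also occur in the entries of Mylip (3 matches) and Npc2 (2) and in 1 of the 3 Insig2 entries (3), the one shown, which belongs to the start site at the edge of the annotated gene. The E-box before Insig1, 101 bases from its start site, is a match found in 7.15% of all entries, among them both entries of Scap. A match is a description of the letters in these windows, not evidence of binding.

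An intron of Srebf2 also holds the microRNA gene Mir33, whose product is known to repress the cholesterol exporter Abca1. Its 2 mature arms are shown because they are transcribed within the Srebf2 primary transcript, with the seed (bases 2 to 8) in capitals.
mmu-miR-33-5p, chr15:82198127-82198147: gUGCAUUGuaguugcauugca
mmu-miR-33-3p, chr15:82198167-82198188: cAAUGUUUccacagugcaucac
Mir33 is listed at 0 FPKM in all 6 libraries. Whether these libraries capture RNA as short as the mature arms was not tested, so this value does not show that the microRNA is absent.

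The values are FPKM, fragment numbers scaled for gene length and library depth, so levels can be compared between genes. The libraries were alike in the number of genes at 1 FPKM or more (13303 to 13703). Depth was 16300000 to 21200000 fragments by a rough estimate from the spacing of low values, searched within a fixed range. The libraries were less alike in the share of summed FPKM that fell on immunoglobulin genes. This share ran from 27.9% in atorvastatin library 3 to 47.9% in atorvastatin library 2. Vehicle library 3 stood apart, with a mean Pearson's r across genes of 0.944 to the other 5 libraries, against 0.957 to 0.961 for the rest. Markers fit a mixed lamina propria preparation: B cell, plasma cell, T cell, macrophage, fibroblast, endothelial and smooth muscle markers were measured in every library, and so was some epithelium. Of the 10 epithelial markers, Lgr5, Cdx1, Cdx2 and Krt20 stayed under 1 FPKM throughout. Epcam, the defining surface marker, was at 8.27 to 13.6 FPKM, Krt8 at 2.77 to 11.9 FPKM and Krt19 at 1.43 to 7.32 FPKM. Muc2, Car1 and Vil1 reached 5.89, 5.22 and 1.32 FPKM. In such bulk samples fewer cells of a type and less RNA per cell cannot be told apart.

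All 8 genes were expressed in every library, and all 8 passed the filter of at least 1 FPKM in at least 3 libraries. Npc2 was the most abundant, at 38.4 to 47.2 FPKM, above 91.9% of the 13590 genes tested. Mylip, Insig1 and Srebf2 followed with means over the 6 libraries of 25.4, 23.0 and 21.8 FPKM, and the ranges of neighbours in this order overlapped. Scap, Insig2 and Npc1 had means of 8.71, 6.08 and 5.65 FPKM, and again neighbours overlapped. Stard4 was the lowest, at 2.61 to 3.37 FPKM, above 29.9% of the genes tested. The steps from Npc2 to Mylip, from Srebf2 to Scap and from Npc1 to Stard4 were the ones without overlap in range, and held in 6 of 6 libraries.

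**Figure D1:**
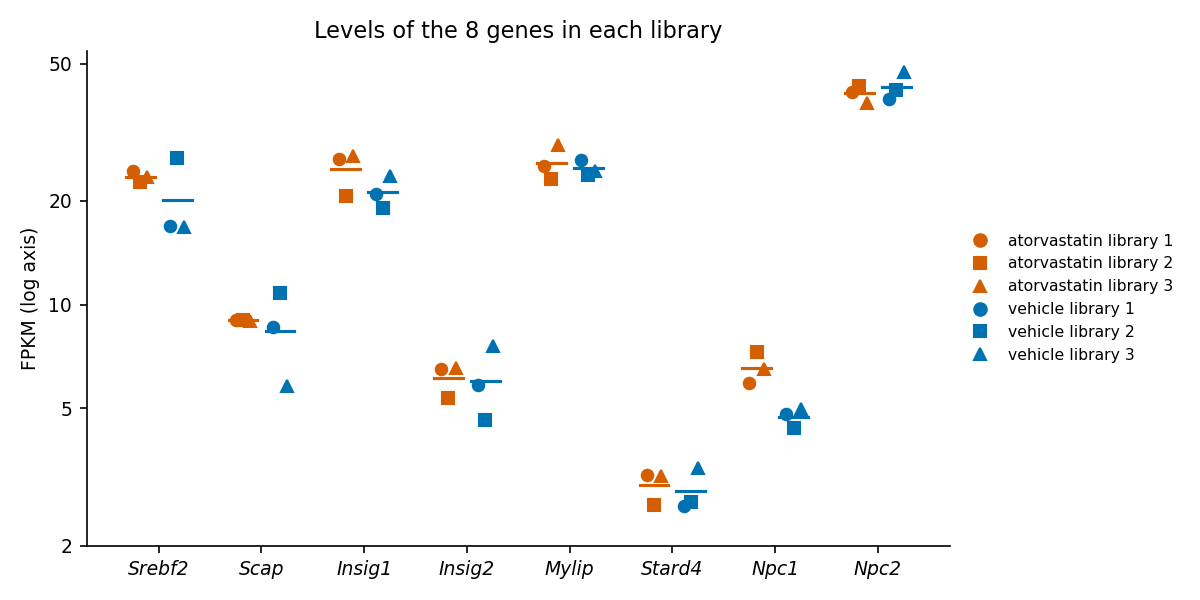
FPKM of the 8 genes on a log axis, with a point for each library (atorvastatin left and orange, vehicle right and blue) and a bar at the group mean (n = 3 libraries per group). Npc1 is the gene whose groups do not overlap: the atorvastatin libraries sit between 5.94 and 7.27 FPKM and the vehicle libraries between 4.40 and 4.97 FPKM.

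None of the 8 genes passed the test of atorvastatin against vehicle, which was limma on log2(FPKM + 1) with Benjamini-Hochberg adjustment over all 13590 genes. The share called over all genes was 0%, with 0 genes at a false discovery rate of 0.05. At an unadjusted p under 0.05 in limma there was 1 of the 8, Npc1, against 7.17% of all genes (974). The groups did not overlap in 1 of the 8, again Npc1, against 14.4% of all genes, and a single gene of 8 is not a result about the set. The log2 difference was positive in 7 of the 8 genes, with a median of 0.09, and over all genes tested 6382 differences were positive and 7208 negative, with a median of -0.02.

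Npc1, the lysosomal membrane protein that exports cholesterol, had the largest difference of the 8. It had 5.94, 7.27 and 6.50 FPKM in the atorvastatin libraries, against 4.81, 4.40 and 4.97 FPKM in the vehicle libraries. Each atorvastatin library was above every vehicle library, and the mean was 1.39-fold higher. The difference on the log2(FPKM + 1) scale was 0.40 (SE 0.11, 95% interval 0.13 to 0.67), with an adjusted p of 0.692 in limma and an unadjusted p of 0.00939. The difference was between 0.33 and 0.46 with any single library left out, and 0.43 without vehicle library 3.

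Npc1 (ENSMUSG00000024413, chromosome 18, 12189692 to 12236400, minus strand, build mm10) shares 511 of its 11317 annotated exon bases with Rmc1, a protein-coding gene on the other strand, and 90 with the antisense gene Gm15956. The sources used here do not say whether the authors' counting used strand, so reads over the shared bases may count for either gene. Rmc1 had 3.86, 4.61 and 5.06 FPKM with atorvastatin, against 4.42, 4.78 and 4.12 FPKM with vehicle. Its groups overlapped, and the log2 difference was 0.01 (SE 0.12, limma adjusted p = 0.983). Gm15956 had 0.71, 0.74 and 1.04 FPKM with atorvastatin, against 0.34, 0.44 and 0.76 FPKM with vehicle, and its groups overlapped too.

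Of 11 macrophage markers listed, the 10 that passed the filter all had positive differences. Cx3cr1, which did not pass it, had a lower mean with atorvastatin. Their summed level was 225 to 242 FPKM with atorvastatin and 135 to 288 FPKM with vehicle. Vehicle library 3 had the highest macrophage sum of the 6 libraries. In Mertk the groups did not overlap, at 3.76, 3.56 and 4.12 FPKM with atorvastatin, against 2.96, 2.96 and 2.85 FPKM with vehicle. In the other macrophage markers that passed the filter the groups overlapped. B cell markers were the list whose summed level did not overlap between the groups, at 282 to 306 FPKM with atorvastatin and 353 to 471 FPKM with vehicle, and all 9 had negative differences. All 5 epithelial markers that passed the filter, of 10 listed, had negative differences as well. Among those that did not pass it, Vil1 and Cdx2 had higher means with atorvastatin, and Cdx1, Krt20 and Lgr5 had lower ones. The epithelial sums were 16.7 to 36.9 FPKM with atorvastatin and 30.1 to 38.4 FPKM with vehicle. All 4 smooth muscle markers had positive differences, with sums of 528 to 725 FPKM with atorvastatin and 409 to 737 FPKM with vehicle, and in Myh11 the groups did not overlap. All 4 neutrophil markers that passed the filter, of 7 listed, had negative differences, with sums of 6.19 to 10.2 FPKM with atorvastatin and 8.87 to 16.4 FPKM with vehicle, and in S100a8 and S100a9 the groups did not overlap. S100a8 reached 1 FPKM in vehicle libraries only and passed the filter through them. The other lists with more than 1 tested marker were mixed. Plasma cell markers had 4 positive and 3 negative differences, and T cell markers 2 and 6. Fibroblast markers had 4 positive and 2 negative differences, and endothelial markers 4 and 1. Over all genes tested, the groups did not overlap in 14.4%. The part of these markers in the Npc1 difference was not tested.

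Npc2, the soluble lysosomal protein that hands cholesterol to NPC1, overlapped between the groups. It had 41.4, 43.2 and 38.4 FPKM with atorvastatin, against 39.5, 42.0 and 47.2 FPKM with vehicle, and vehicle library 3 was the highest. The log2 difference was -0.06 (SE 0.12, 95% interval -0.35 to 0.23, limma adjusted p = 0.911). The ratio of Npc2 to Npc1 within a library does not depend on how that library was scaled. It was 6.97, 5.94 and 5.91 in the atorvastatin libraries, against 8.21, 9.55 and 9.49 in the vehicle libraries. Every atorvastatin library was below every vehicle library. The mean ratio was 6.27 ± 0.601 with atorvastatin and 9.08 ± 0.755 with vehicle (SD, n = 3 each), a difference in log2 ratio of -0.53 with an exact two-sided permutation p of 0.1, the smallest that 3 against 3 libraries allow. This ratio holds the Npc1 values given above, so it is not a separate observation.

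**Figure D2:**
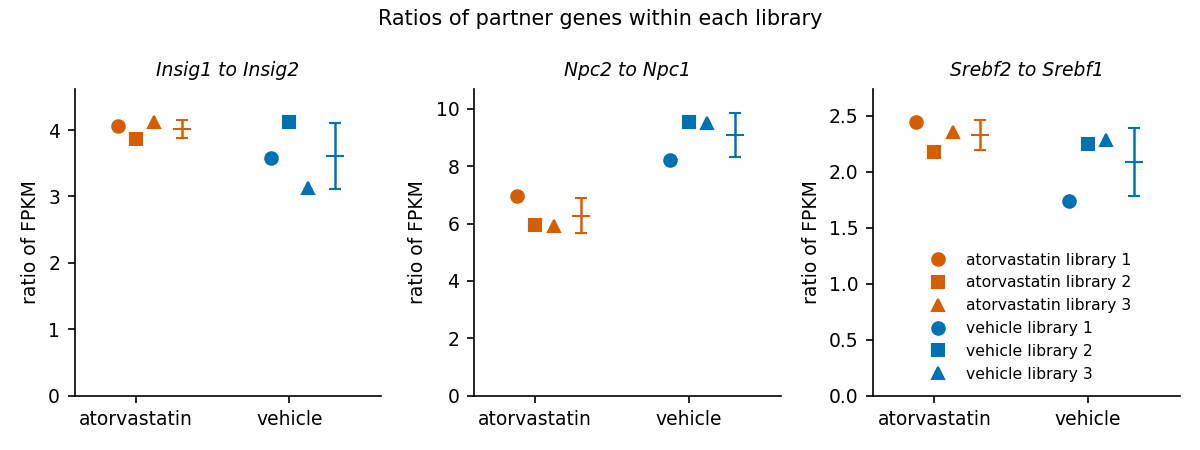
Ratio of FPKM between partner genes in each library, for Insig1 to Insig2, Npc2 to Npc1 and Srebf2 to Srebf1, with atorvastatin left and vehicle right; the bars give the mean ± SD (n = 3 libraries per group) and each vertical axis starts at 0. The Npc2 to Npc1 ratio lies between 5.91 and 6.97 with atorvastatin and between 8.21 and 9.55 with vehicle, while the groups overlap in the other panels.

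Srebf2, which encodes the precursor of SREBP2, had 24.4, 22.6 and 23.5 FPKM with atorvastatin, against 17.0, 26.6 and 16.8 FPKM with vehicle. The atorvastatin libraries lay close together, between vehicle library 2 above and vehicle libraries 1 and 3 below. The mean was 23.5 ± 0.900 FPKM with atorvastatin and 20.1 ± 5.62 FPKM with vehicle (SD, n = 3 each). The log2 difference of 0.25 (SE 0.19, 95% interval -0.20 to 0.70) did not pass in limma (adjusted p = 0.753), and it was 0.46 without vehicle library 2 and 0.14 without vehicle library 3. The gene lies on chromosome 15, 82147181 to 82205379, plus strand.

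Scap, the escort that carries the precursor out of the endoplasmic reticulum, had the same order of vehicle libraries as Srebf2. It had 9.02, 9.02 and 8.99 FPKM with atorvastatin, against 8.61, 10.8 and 5.81 FPKM with vehicle. Vehicle library 2 was the highest of the 6 libraries in both Srebf2 and Scap, and vehicle library 3 the lowest in both. The coefficient of variation of Scap was 0.192% with atorvastatin and 29.7% with vehicle, and that of Srebf2 was 3.83% with atorvastatin and 28.0% with vehicle. With 3 libraries per group these spreads are poorly determined. The log2 difference of Scap was 0.13 (SE 0.20, 95% interval -0.35 to 0.60, limma adjusted p = 0.883), and it turned to -0.09 without vehicle library 3. Scap shares 985 of its 7443 exon bases with 5830462I19Rik on the other strand, which had 1.83, 1.87 and 2.66 FPKM with atorvastatin, against 1.27, 1.65 and 1.14 FPKM with vehicle. Those groups did not overlap, and the limit on strand applies here too. The span of Scap in the files also differs from that in GENCODE, unlike the spans of the other members. The exon bases that were counted may therefore differ from those given here.

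Srebf1, the paralog of Srebf2 that mainly serves fatty acid synthesis, had 9.99, 10.4 and 10.01 FPKM with atorvastatin, against 9.74, 11.8 and 7.34 FPKM with vehicle. As in Srebf2 and Scap, vehicle library 2 was the highest and vehicle library 3 the lowest. The ratio of Srebf2 to Srebf1 was 2.44, 2.18 and 2.35 with atorvastatin, against 1.74, 2.25 and 2.28 with vehicle, and the groups overlapped (exact two-sided permutation p = 0.4).

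Insig1, whose product retains SCAP and whose gene SREBP2 drives, had 26.5, 20.7 and 26.9 FPKM with atorvastatin, against 20.9, 19.1 and 23.7 FPKM with vehicle. Atorvastatin libraries 1 and 3 were above every vehicle library, and atorvastatin library 2 lay within the vehicle range. The log2 difference was 0.20 (SE 0.15, 95% interval -0.15 to 0.55, limma adjusted p = 0.75). It was between 0.13 and 0.32 under the 11 alternatives that can move it, and passed under none of the 14 tried. The interval leaves room for an increase of up to 0.55 log2 units. Insig1 lies on chromosome 5, 28071363 to 28078662, plus strand.

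Insig2, its homolog with the same retention function, had 6.53, 5.36 and 6.54 FPKM with atorvastatin, against 5.86, 4.64 and 7.57 FPKM with vehicle. The vehicle libraries spanned the whole atorvastatin range. The log2 difference was 0.04 (SE 0.17, 95% interval -0.37 to 0.45, limma adjusted p = 0.961), and it turned to -0.11 without vehicle library 2 and to -0.0002 without atorvastatin library 3. Insig1 was 3.13 to 4.12 times as abundant as Insig2 in every library. The ratio was 4.06, 3.86 and 4.12 with atorvastatin, against 3.57, 4.12 and 3.13 with vehicle, with an exact two-sided permutation p of 0.4. Vehicle library 2 held the lowest Insig1 and Insig2 levels of the 6 libraries, the reverse of its place in Srebf2 and Scap.

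Mylip, the ligase that marks the LDL receptor for degradation, had 25.2, 23.2 and 29.1 FPKM with atorvastatin, against 26.3, 23.8 and 24.5 FPKM with vehicle. The groups overlapped, with atorvastatin library 3 the highest and atorvastatin library 2 the lowest. The log2 difference was 0.05 (SE 0.12, 95% interval -0.25 to 0.34, limma adjusted p = 0.934), and it turned to -0.04 without atorvastatin library 3. Mylip lies on chromosome 13, 45389742 to 45412022, plus strand.

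Stard4, a carrier of sterol between membranes, had 3.20, 2.63 and 3.19 FPKM with atorvastatin, against 2.61, 2.68 and 3.37 FPKM with vehicle. The groups overlapped fully, and vehicle library 3 was the highest. The log2 difference was 0.05 (SE 0.13, 95% interval -0.26 to 0.35, limma adjusted p = 0.941), and it turned to -0.0046 without vehicle library 1. This is the gene with the fewest fragments of the 8, roughly 237 to 400 in a library by the depth estimate and its annotated exon length, and the pseudocount of 1 understates its changes most.

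**Figure D3:**
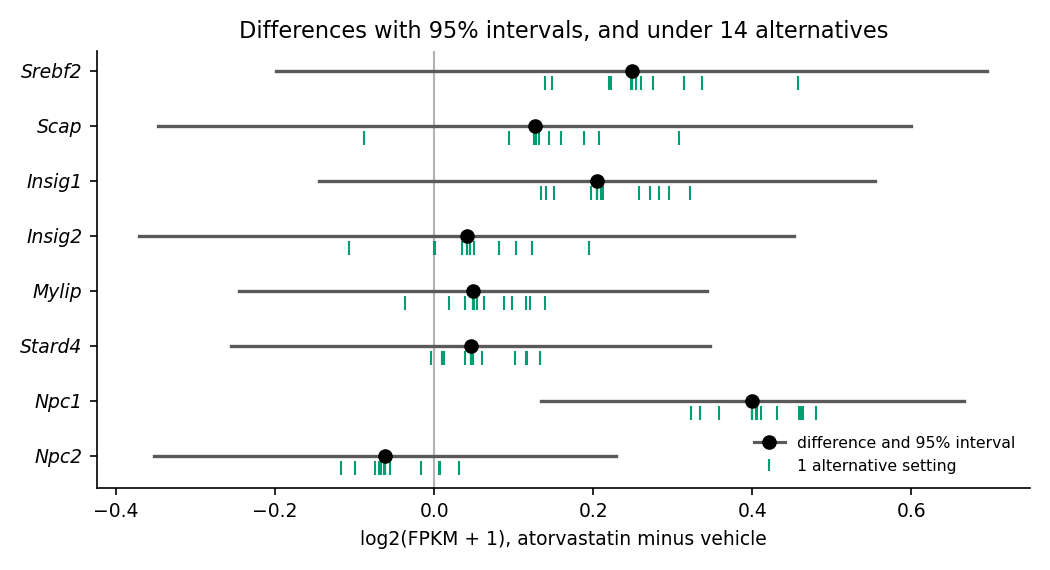
Difference of log2(FPKM + 1), atorvastatin minus vehicle, for the 8 genes, with the limma estimate as a black point, its 95% interval as a grey line (n = 3 libraries per group) and each of 14 alternative settings, 3 of which cannot move it, as a green tick. The interval of Npc1, 0.13 to 0.67, lies above 0, and the other 7 intervals include 0; the intervals are not adjusted for the 13590 genes tested.

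The gene lists around these 8 were also read as counts. Genes whose groups did not overlap were counted as higher or lower with atorvastatin. These were 3 and 1 in cholesterol synthesis, 0 and 2 in SREBP processing and degradation, and 2 and 0 in lipoprotein receptors. In sterol transport and in LXR genes they were 1 and 1 each. Over all genes tested they were 752 and 1203, together 14.4%. Among genes of SREBP processing and of degradation in the endoplasmic reticulum, 0 of the 12 tested (of 13 listed) passed, and 5 differences were positive and 7 negative, with a median of -0.03. Among the abundant members were Syvn1, which encodes a ubiquitin ligase of the endoplasmic reticulum, and the conjugating enzyme gene Ube2g2. Syvn1 had a log2 difference of 0.17 (SE 0.18) and Ube2g2 of 0.03 (SE 0.12).

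Of 21 cholesterol synthesis genes 19 were tested and 0 passed, with 6 positive and 13 negative differences and a median of -0.10. Lbr, which encodes a sterol reductase of the nuclear envelope, averaged 12.9 FPKM with atorvastatin and 14.8 FPKM with vehicle, and Cyp51, lanosterol demethylase, averaged 9.10 FPKM with atorvastatin and 9.94 FPKM with vehicle. Hmgcs1, the synthase that makes HMG-CoA, averaged 11.2 FPKM with atorvastatin and 10.7 FPKM with vehicle. Against this list, the log2 differences of Srebf2 and Insig1 given above were positive. The groups overlapped in all 3 of these synthesis genes.

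Lipoprotein receptors, their adaptors and recycling genes had 0 of 11 tested genes past the threshold (of 12 listed), with 7 positive and 4 negative differences and a median of 0.03. Lrp1, a large endocytic receptor for remnant lipoproteins and many other ligands, had 34.9, 27.8 and 33.1 FPKM with atorvastatin, against 24.7, 28.3 and 18.1 FPKM with vehicle. Its groups overlapped in atorvastatin library 2, and its log2 difference was 0.43 (SE 0.19, limma adjusted p = 0.696). Dab2, an adaptor for LDL receptor endocytosis named after its values were seen, had 11.3, 10.5 and 13.7 FPKM with atorvastatin, against 9.87, 8.55 and 9.51 FPKM with vehicle, without overlap. Its log2 difference was 0.31 (SE 0.13, limma adjusted p = 0.692). Ccdc93 was the other gene of this list without overlap, also higher. That makes 2 of the 11 tested, against 14.4% of all genes. The sorting gene Snx17 (log2 difference -0.09, SE 0.11) and the deubiquitinase gene Usp8 (0.03, SE 0.11) were the other abundant members.

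Of lysosomal and intermembrane sterol transport genes, 0 of 18 tested passed (of 19 listed), with 7 positive and 11 negative differences and a median of -0.03. Lamp1 and Lamp2, membrane proteins of the lysosome in which NPC1 works, averaged 103 and 33.02 FPKM with atorvastatin, against 111 and 34.3 FPKM with vehicle. Their log2 differences were -0.10 (SE 0.16) and -0.04 (SE 0.15), each smaller in size than its SE, and the groups overlapped in both. Gramd1a, which encodes a carrier of plasma membrane cholesterol to the endoplasmic reticulum, had a log2 difference of 0.20 (SE 0.15). LXR receptors and targets had 0 of 8 past the threshold, with 6 positive and 2 negative differences and a median of 0.12. Apoe, a lipoprotein component, had 110, 82.8 and 74.7 FPKM with atorvastatin, against 51.0, 72.9 and 72.5 FPKM with vehicle, without overlap (log2 difference 0.44, SE 0.21, limma adjusted p = 0.696). Lpcat3 was the other gene of this list without overlap, and it was lower with atorvastatin. Ch25h, an oxysterol-producing hydroxylase, had a log2 difference of 0.25 (SE 0.35), and Pltp, a phospholipid transfer protein, of 0.14 (SE 0.17).

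**Figure D4:**
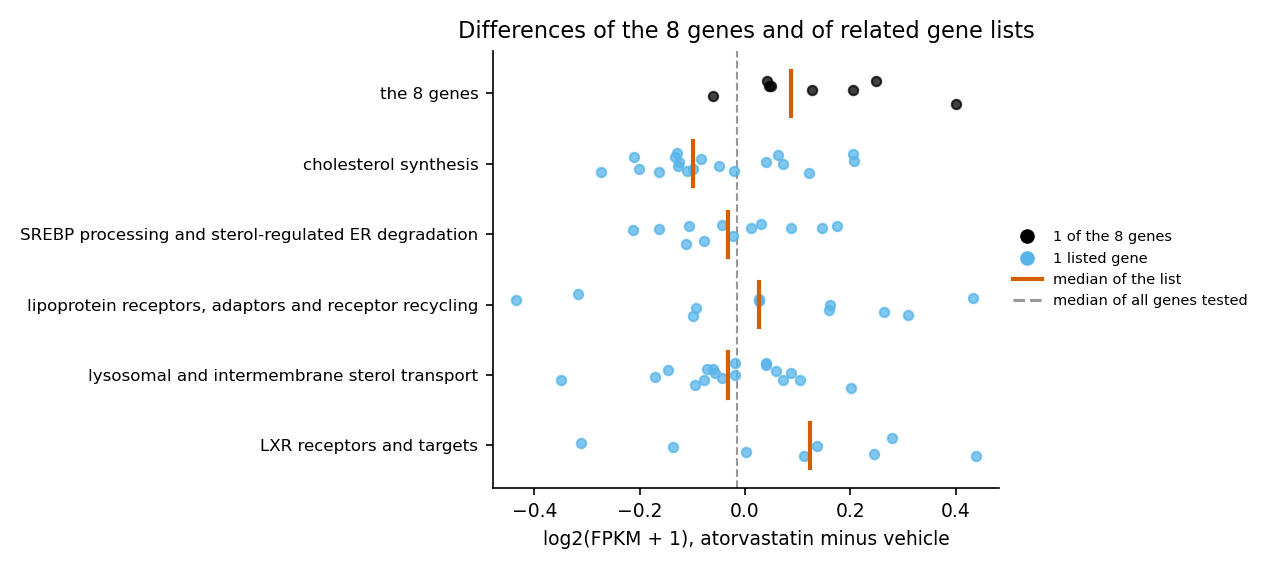
Difference of log2(FPKM + 1), atorvastatin minus vehicle, of the 8 genes (black) and of the tested genes of 5 related lists (blue), with an orange bar at each median and a dashed line at the median of all genes tested; vertical scatter within a row is for display. The medians run from -0.10 for cholesterol synthesis to 0.12 for LXR receptors and targets, against -0.02 for all genes, and no point passed the test.

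The genes whose pattern over the 6 libraries was most like that of Srebf2 were Tmub2, Gaa and Insyn1. Their Pearson's r of log2(FPKM + 1) with Srebf2 over 6 libraries was 0.998, 0.984 and 0.983. Tmub2, for example, had 12.6, 12.1 and 12.4 FPKM with atorvastatin, against 11.0, 13.0 and 11.0 FPKM with vehicle, and was likewise highest in vehicle library 2. Those most like Insig1 were Pim3, Crispld2 and Dll1, with r of 0.998, 0.997 and 0.995 over 6 libraries. Pim3 had 82.1, 54.9 and 84.6 FPKM with atorvastatin, against 56.6, 47.5 and 70.9 FPKM with vehicle, low in atorvastatin library 2 and vehicle library 2 like Insig1. These genes were picked as the highest of 13590 over 6 libraries, so the values are given as a description.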

How the data were processed

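The authors deposited 1 file of FPKM values per library, with 2 decimals. The submitters' processing notes name FastQC 0.11.2, Bowtie and the build mm10; the sources used here name no quantifier, annotation or strand setting. Symbols and exon lengths came from GENCODE mouse release 21, whose gene spans equal those of the files for 51957 of 55401 IDs; 260 IDs had no symbol. The 13590 genes reaching 1 FPKM in 3 or more libraries were compared on log2(FPKM + 1), which understates changes of low genes, by limma-trend (limma 3.58.1 under R 4.3.3) at a false discovery rate of 0.05 over all genes; intervals are 95%. Ratios were compared by an exact permutation test over libraries. The limma script was tested on simulated data.

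Fragment numbers were not used here. In genes with 1 transcript of under 1500 bases, 31.3% to 37.9% of low values lay within 0.1 of a whole fragment. Even spread gives 20% at a spacing set beforehand. Here the spacing was searched within a fixed range as the best for these values. That choice itself raises the share, so the depths are rough.

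The members and the gene lists were chosen with earlier results of these data known. The genes named were the 8 members, the 3 most abundant of each list, the 3 most like Srebf2 and Insig1, and Srebf1, except for an item that is not reported here; genes overlapping a member, and Dab2, were added after values were seen. Alternatives covered the pseudocount, the filter, scaling, the replicate number as a block and each library left out; removal of a length trend was added after seeing the data.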

Additional observations from a re-analysis of the deposited data

How the results depend on the processing

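No gene of the 8 passed under any of 14 alternatives. The 2 other filters and the replicate block leave each difference as it is. Under the other 11 alternatives 8 of 88 differences changed sign, none of them in Srebf2, Insig1 or Npc1. Npc1 had its lowest value, 0.32, with the length trend removed. Npc2 was 0.0060 with an equal sum per library and 0.031 with that sum taken without immunoglobulin genes. The median difference of all genes was 0.04 and 0.06 under these scalings, against -0.02 as deposited. With single libraries left out the difference ran from -0.11 to 0.20 in Insig2, -0.037 to 0.12 in Mylip, -0.12 to 0.0075 in Npc2, -0.089 to 0.31 in Scap and -0.0046 to 0.13 in Stard4, and the sign of Npc2 turned without vehicle library 3. The cause was not tested. The number of genes called over all genes was 0 to 2 with a library left out: Gm8210 was called without atorvastatin library 1, and Igkv1-99 and Gm26712 without atorvastatin library 3. The 3 ratios kept their direction in the 21 alternative values that can move, and the block leaves the other 3 as they are. With the replicate number as a block, 0 genes passed and 852 had an unadjusted p under 0.05 in limma, against 974 without it, and the Npc1 difference was 0.40 (SE 0.13). Deviations of same-numbered libraries correlated at -0.109, 0.137 and -0.0151, and those of differently numbered libraries at -0.162 to 0.192. With so few libraries this cannot show whether the numbers pair them. Leaving out a library also changed which genes passed the filter. Depth limits Stard4 most.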
